A study of Mus musculus with 8 samples.

Results

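The collagen and laminin genes were followed in eosinophils from 2 tissues of the mouse, bone marrow and small intestine. The members were the rows of the expression table whose gene symbol read Col, a number, a and a number, or Lam, the letter a, b or c, and a number. There were 55 such genes among 38392, namely 44 collagen genes and 11 laminin genes, and the choice used no expression value. Both groups came from wildtype female mice of the strain C57/BL6 and each held 4 libraries. Bone marrow eosinophils were sorted as CD11b+Ly6G-Ly6C-SiglecF+SSChi cells, and small intestinal eosinophils as CD11b+MHC-II-SiglecF+SSChi cells. The labels name no agent and no age, and RNA was taken straight after the sort. Per the methods of the study, the epithelium was stripped from the intestine with EDTA, the remaining wall was digested with collagenase, and the cells were bound to beads against CD11b before the sort. Bone marrow was flushed out and went to the sort undigested and unselected. Tissue and handling therefore cannot be told apart.

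Collagens are trimeric proteins of the extracellular matrix. Fibrillar collagens such as types I and III form the load-bearing fibres of connective tissue and are made chiefly by fibroblasts. Type IV collagen forms the network of basement membranes, and laminins, each made of an alpha, a beta and a gamma chain, form the other network of these sheets. Collagen XVII is a transmembrane collagen of the hemidesmosome, the structure that anchors epithelial cells to laminin-332, whose alpha and beta chains are the products of Lama3 and Lamb3. In the wall of the intestine these genes are known chiefly from epithelial cells, fibroblasts, smooth muscle and endothelium.

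The libraries are named as in the expression table, with bone marrow as BM_1, BM_3, BM_4 and BM_5 and small intestine as SI_6, SI_7, SI_10 and SI_11, and values by library are given in that order. They held 11508002 to 21289164 reads in genes. A normalised count is the reads of a gene over its library's size factor, and a level per kb is a normalised count divided by the exonic length of the gene. A difference is the small intestine mean less the bone marrow mean of the deposited log2 values, given with the standard error (SE) of limma, and this scale understates the change of genes with few reads. The p-values of limma are 2-sided and were adjusted over all 38392 genes by the Benjamini-Hochberg method, with a threshold of 0.05. The methods of the study give 4 mice for each tissue and do not say whether the same mice gave both, and p-values measure the spread between these libraries. In sorted cells measured in bulk, fewer cells of a type and less RNA per cell cannot be told apart.

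The labelled cell type was checked against markers of eosinophils. Siglecf, a surface lectin used in the sort, was at 642, 610.4, 578 and 489 normalised counts in bone marrow and 2646, 2848, 2989.8 and 3820.2 in small intestine. Ccr3, the eotaxin receptor, was at 45.9 to 102 in bone marrow and at 13285 to 19653 in small intestine, while Epx, eosinophil peroxidase, was at 303 to 398 and at 12.5 to 29.5. Low-level reads also differed between libraries. The 954 olfactory receptor genes, which eosinophils are not known to use, held 104 to 613 reads in BM_1, BM_3 and BM_4, 2199 in BM_5, 605 to 1034 in SI_6, SI_7 and SI_11, and 2530 in SI_10. BM_5 and SI_10 therefore stood apart, and counts are also given without these libraries.

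Collagen and laminin genes were higher in small intestinal eosinophils for 33 of the 55 genes and lower for 0, by limma. None was lower at an unadjusted p under 0.05, and limma voom on the recovered reads called 40 higher and 0 lower. Among all genes 22.0% were higher and 12.9% lower, and among protein-coding genes, the class of every collagen and laminin gene here, 28.4% were higher and 20.1% lower. The median difference of the 55 genes was 1.91, against 0.370 for all genes and 0.445 for protein-coding genes. For 29 of the 55, every small intestine library lay above every bone marrow library, which held for 20.3% of all genes. Without BM_5 and SI_10, 36 of the 55 genes were called. When each library was centred on its own median, 25 were higher and 2 were lower (Col11a2 and Col9a2), and after quantile normalization 26 were higher and 1, Col11a2, was lower. Each library's median was taken over all genes, of which 22177 had a mean under 10 reads. Centring therefore lowered every difference by the same amount, which was set by genes with few reads. Calls lost or gained by centring carry that limit. The shares of all genes were counted for the main fit only. Under limma voom the median difference of all genes was 0.894.

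The share of genes that passed differed by class. Of the laminins 9 of 11 were higher, with a median difference of 2.64, and of the collagens 24 of 44, with a median of 1.85. Among the laminins these included 4 of 5 alpha and 3 of 3 beta chains. Among the collagens they were 7 of 11 fibrillar, 4 of 6 type IV, 3 of 6 type VI, 3 of 4 transmembrane and 2 of 2 multiplexin genes, the last being the basement membrane collagens XV and XVIII. Of the fibril-associated collagens 2 of 9 passed (22.2%), a share next to the 22.0% of all genes and under the 28.4% of protein-coding genes, while of the short chain and anchoring collagens 2 of 4 passed, and of the remaining collagens XXVI and XXVIII 1 of 2. Differences between classes were not tested.

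**Figure D1:**
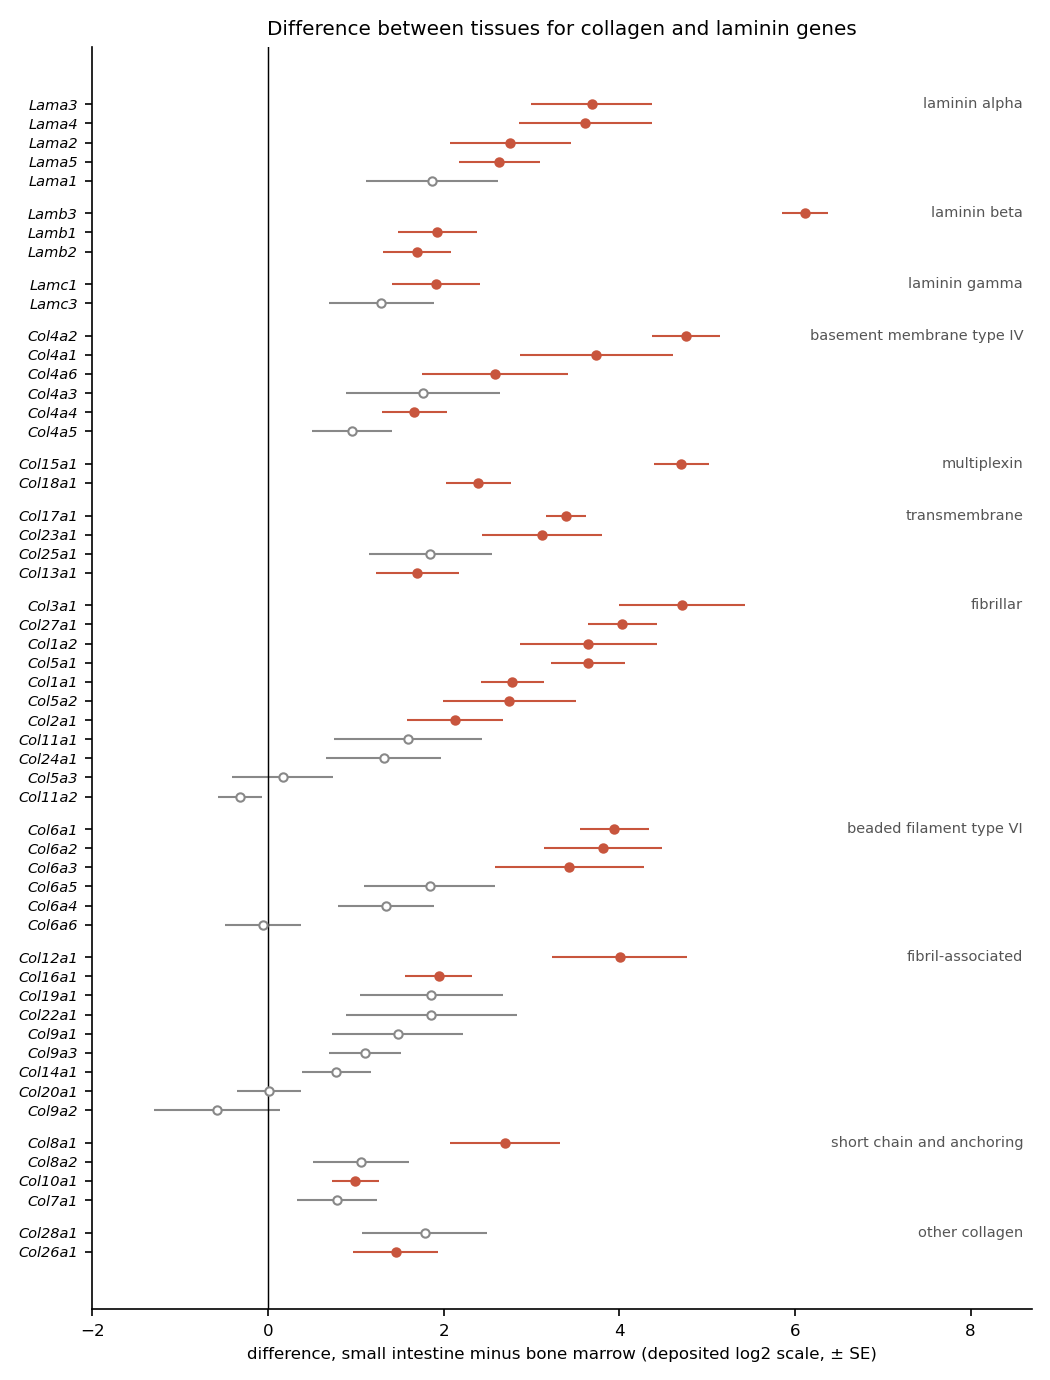
Difference between small intestine and bone marrow (x axis, deposited log2 scale) for 54 of the 55 genes, grouped by class; bars are the SE of limma over 4 libraries a tissue. Filled points passed the adjusted p threshold of 0.05 and open points did not. Lamb3 lies furthest to the right at 6.11, and no filled point lies left of 0.

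Lamb3, the beta chain of laminin-332, had the highest level per kb and the largest difference of the 55 genes. It was at 192, 235, 211 and 236 normalised counts in bone marrow and at 9559, 17354, 16696 and 19977 in small intestine. All 4 small intestine libraries lay far above the bone marrow libraries, and SI_6 was the lowest of them. The means were 219 ± 21.4 and 15896 ± 4456 (SD, n = 4), a ratio of 72.7, and the difference was 6.11 ± 0.26, adjusted p = 1.43e-06. Per kb its mean level in small intestine was 2404, rank 191 of 38392 genes. The summed normalised counts of the 55 genes were 14069 to 23549 in small intestine and 617 to 1489 in bone marrow, and without Lamb3 they were 3572 to 4739 and 425 to 1253.

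Col17a1, the hemidesmosomal collagen, was next in level per kb in small intestine. It was at 106, 93.9, 113 and 132 in bone marrow and at 923, 1603, 1069.9 and 1303 in small intestine, with no overlap and with SI_6 again lowest. The difference was 3.39 ± 0.23, adjusted p = 1.38e-05. Per kb its mean in small intestine was 204, and the level of Lamb3 per kb was 9.41 to 14.2 times that of Col17a1 in the 4 libraries.

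Lama3, the alpha chain of laminin-332, was far lower. It was at 0, 3.26, 1.91 and 20.5 in bone marrow and at 89.5, 90.1, 91.9 and 45.04 in small intestine, where 3 libraries lay close together and SI_11 was lower. Its difference was 3.68 ± 0.69, adjusted p = 0.00316. In small intestine Lamb3 exceeded Lama3 by 174 to 721 times per kb, so the transcripts of these chains of 1 trimer were not at like levels in any library. The ratio was lowest in SI_6 and highest in SI_11.

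The 250 bases before the RefSeq start of Lamb3 and of Col17a1, the genes with the highest levels in small intestine, are shown with those of Col3a1, the fibrillar collagen with the largest difference, since these genes followed different patterns over the small intestine libraries. They are the RefSeq promoter windows of build GRCm38.p6, written 5′ to 3′ on the strand of the gene. Lamb3 (chr1:193301744-193301993, plus strand) has 2 windows in that table and the first is shown, and both lie well inside the span that GENCODE M21 gives the gene. Col17a1 lies at chr19:47692043-47692292 on the minus strand and Col3a1 at chr1:45311288-45311537 on the plus strand. Capitals mark GCGTG, the core of the element bound by the aryl hydrocarbon receptor, in Lamb3, and TATAAA in the other two.
Lamb3: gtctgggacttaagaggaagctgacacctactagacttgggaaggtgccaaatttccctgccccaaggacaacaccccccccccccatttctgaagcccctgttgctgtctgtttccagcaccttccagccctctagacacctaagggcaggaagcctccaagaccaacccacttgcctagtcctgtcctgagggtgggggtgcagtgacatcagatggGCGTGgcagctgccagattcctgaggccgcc
Col17a1: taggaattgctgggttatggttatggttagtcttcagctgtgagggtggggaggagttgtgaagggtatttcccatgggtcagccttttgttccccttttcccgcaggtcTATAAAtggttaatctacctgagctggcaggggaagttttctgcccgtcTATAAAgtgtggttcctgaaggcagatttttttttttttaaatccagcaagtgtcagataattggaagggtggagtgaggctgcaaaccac
Col3a1: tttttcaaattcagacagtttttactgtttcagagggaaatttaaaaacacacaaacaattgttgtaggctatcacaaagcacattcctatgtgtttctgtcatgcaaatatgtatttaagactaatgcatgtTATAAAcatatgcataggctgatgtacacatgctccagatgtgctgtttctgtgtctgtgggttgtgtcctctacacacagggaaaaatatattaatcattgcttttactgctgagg
GCGTG began 31 bases before the start of Lamb3, TATAAA began 140 and 91 bases before that of Col17a1, and 117 bases before that of Col3a1. RefSeq windows were found for 40 of the 55 genes (44 windows). On either strand GCGTG was in 10 of the 44 windows (22.7%) and in 28.2% of all 32851 windows, TATAAA in 11.4% and 12.4%, and TGANTCA, the AP-1 element, in 2.27% and 6.75%. GGGCGG, the GC box, was in 54.5% of these windows and in 32.7% of all. A window counted once for each motif, and matches of different motifs could overlap. The motifs were chosen after the sequences had been seen, and a match is a description, not a site.

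Other genes lie within the span of Lamb3. The gene spans chr1:193207699-193343878 (GRCm38, plus strand). Within it, on the opposite strand, lies G0s2, an inhibitor of triglyceride lipolysis, which was at 255 to 320.3 normalised counts in bone marrow and at 7194 to 12011 in small intestine. Hsd11b1, a glucocorticoid-activating enzyme, also overlaps it from the opposite strand and was at 1809 to 2165 in bone marrow and 108 to 165 in small intestine. No exon of Lamb3 overlapped an exon of another gene in the GENCODE M21 annotation, and the same held for Col17a1 (chr19:47646344-47692094, minus strand). The strand setting of the counts is not given in the sources used here, and the annotation behind them was an earlier release.

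The other laminin chains were at lower levels. Lamc1, the common gamma chain, was at 9.96, 31.95, 40.2 and 68.8 in bone marrow and at 183, 144, 128 and 80.6 in small intestine (1.91 ± 0.50, adjusted p = 0.0174). Lamb1, its usual beta partner, was at 6.90, 7.83, 12.4 and 29.7 and at 98.2, 63.8, 48.1 and 33.2 (1.93 ± 0.45, adjusted p = 0.00957). Both fell in the order SI_6, SI_7, SI_10 and SI_11, and the level of Lamb1 per kb was 0.314 to 0.447 times that of Lamc1. The call of Lamc1 was lost without BM_3, SI_6, SI_7 or SI_10 (adjusted p = 0.0509 to 0.0637), and those of Lamc1 and Lamb1 with libraries centred on their median (differences of 1.01 and 1.03, adjusted p = 0.0753 and 0.0694).

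Of the alpha chains, Lama5, a widely used alpha chain of mature basement membranes, was at 1.53, 5.87, 5.74 and 8.37 in bone marrow and at 92.8, 47.2, 54.7 and 20.1 in small intestine (2.64 ± 0.46, adjusted p = 0.00228). Lama4, the vascular alpha chain, was at 0.766, 1.30, 0 and 25.1 and at 96.1, 47.2, 66.7 and 48.6 (3.62 ± 0.76, adjusted p = 0.00576). Lama2, the alpha chain of muscle, was at 4.60, 0.652, 0.957 and 28.8 and at 76.4, 41.6, 50.3 and 32.003 (2.76 ± 0.69, adjusted p = 0.0135). In these 3 genes the groups did not overlap, SI_6 was highest, and BM_5 was the highest of the bone marrow libraries. Lamb2, a beta chain of vascular and synaptic basement membranes, was at a lower level and also passed (1.69 ± 0.38, adjusted p = 0.00866). The call of Lama2 was lost without SI_6 (adjusted p = 0.0528) or SI_10 (0.0594), and that of Lamb2 with libraries centred on their median (0.79, adjusted p = 0.174) or quantile normalised (0.80, adjusted p = 0.0603). Lama1 and Lamc3 did not pass (adjusted p = 0.0887 and 0.138), and both passed without BM_5 (0.0245 and 0.0401).

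Among the type IV collagens, Col4a2 was at 6.90, 9.13, 3.83 and 20.5 in bone marrow and at 345, 476, 276 and 255 in small intestine. The groups lay far apart, SI_7 was highest, and the difference was 4.76 ± 0.39, adjusted p = 3.52e-05. Its head-to-head neighbour Col4a1, whose product joins that of Col4a2 in the commonest type IV trimer, was at 0, 3.91, 0 and 27.9 and at 100.4, 73.5, 78.8 and 35.6 (3.74 ± 0.87, adjusted p = 0.00983). The 2 genes start 21 bases apart on opposite strands and share 22 exonic bases. In small intestine Col4a2 was 3.87 to 8.08 times higher per kb than Col4a1, with mean levels of 51.03 and 9.65 per kb. Col4a4, a chain of the type IV network known best from the glomerulus, was at 13.03, 15.7, 8.61 and 39.05 and at 60.04, 67.95, 66.7 and 48.6 (1.67 ± 0.37, adjusted p = 0.00821), and the range of its small intestine libraries was narrow. Col4a6 passed (2.59 ± 0.83, adjusted p = 0.0417) although BM_5 (24.2) overlapped the small intestine libraries. Col4a3 and Col4a5 did not pass (adjusted p = 0.168 and 0.15). The call of Col4a1 was lost without SI_10 (adjusted p = 0.0506), that of Col4a6 without any single library but BM_5 (0.0742 to 0.144), and that of Col4a4 with libraries centred on their median (0.77, adjusted p = 0.189).

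Col15a1, a multiplexin that lies between basement membrane and fibres, was at 6.13, 3.26, 5.74 and 13.9 in bone marrow and at 267, 282, 205 and 286 in small intestine (4.71 ± 0.31, adjusted p = 1.21e-05). The small intestine libraries differed by 1.40 times from lowest to highest. Col18a1, the source of endostatin, was lower in level and also passed (2.39 ± 0.37, adjusted p = 0.00119).

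The fibrillar collagens fell into unlike patterns. Col3a1, a main fibrillar collagen of soft tissues, was at 0, 3.26, 0 and 5.58 in bone marrow and at 259.8, 137, 51.4 and 45.04 in small intestine (4.71 ± 0.71, adjusted p = 0.00105). Col1a2, a chain of type I collagen, was at 0.766, 1.30, 0 and 19.5 and at 132, 67.95, 57.98 and 23.7 (3.65 ± 0.78, adjusted p = 0.00651). Col1a1, the other chain, was at 6.90, 14.999, 3.83 and 6.51 and at 105, 85.98, 55.8 and 48.6 (2.78 ± 0.36, adjusted p = 0.000438). All 3 fell in the order SI_6, SI_7, SI_10 and SI_11, and the highest library exceeded the lowest by 5.77, 5.57 and 2.16 times.

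Other fibrillar genes did not follow that order. Col27a1, known best from cartilage, was at 6.90, 19.6, 4.78 and 21.4 in bone marrow and at 236, 215, 228 and 289 in small intestine (4.04 ± 0.39, adjusted p = 8.78e-05), a spread of 1.35 times over the small intestine libraries. Col5a1, which joins type I fibrils and limits their width, was at 2.30, 10.4, 7.66 and 18.6 and at 105, 125, 181 and 175 (3.64 ± 0.42, adjusted p = 0.000243), with SI_6 lowest. Col11a2, a cartilage fibril chain, was at 65.1, 74.3, 83.3 and 96.7 and at 68.8, 88.8, 52.5 and 47.4. Its groups overlapped, and the difference of -0.32 ± 0.25 did not pass (adjusted p = 0.37). Centring libraries on their median gave -1.22 (adjusted p = 0.0285) and quantile normalization -0.70 (adjusted p = 0.0454). Col5a2 and Col2a1 passed at low levels, and each lost its call when SI_6 or SI_10 was left out (adjusted p = 0.0774 and 0.0773 for Col5a2, 0.0523 and 0.0662 for Col2a1), among other libraries. Col5a3, Col11a1 and Col24a1 did not pass.

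Type VI collagen, which forms beaded filaments around cells, was represented mainly by 3 genes. Col6a2 was at 0, 0.652, 0 and 10.2 in bone marrow and at 77.5, 72.1, 33.9 and 24.9 in small intestine (3.81 ± 0.67, adjusted p = 0.0023). Col6a3 was at 0, 6.52, 0 and 15.8 and at 91.7, 73.5, 60.2 and 16.6 (3.43 ± 0.85, adjusted p = 0.0132). Col6a1 was at 0, 0, 0 and 1.86 and at 53.5, 29.1, 37.2 and 21.3 (3.95 ± 0.39, adjusted p = 0.000107), the largest difference among the genes that did not reach a mean of 50 normalised counts in either tissue. In all 3 the groups did not overlap, SI_6 was highest and SI_11 lowest. The call of Col6a3 was lost without SI_6, SI_7 or SI_10 (adjusted p = 0.0533 to 0.0621). The later duplicated chains Col6a4, Col6a5 and Col6a6 did not pass, with differences of 1.34 ± 0.55, 1.84 ± 0.75 and -0.06 ± 0.44.

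Among the remaining classes, Col12a1, a fibril-associated collagen of dense connective tissue, was at 3.83, 9.13, 0 and 31.6 in bone marrow and at 171, 128, 116 and 142 in small intestine (4.004 ± 0.77, adjusted p = 0.00361). Col23a1, a transmembrane collagen, was at 0.766, 2.61, 0 and 4.65 and at 94.97, 44.4, 28.4 and 8.30 (3.12 ± 0.68, adjusted p = 0.00707), the widest range over small intestine libraries among the genes given by library so far. Col10a1, the collagen of hypertrophic cartilage, was at 50.6, 77.6, 79.4 and 105 and at 129, 139, 210.0 and 153. Its groups did not overlap, and the difference was 0.996 ± 0.27, adjusted p = 0.0199, which was lost when libraries were centred on their median (0.10, adjusted p = 0.886) or quantile normalised (0.82, adjusted p = 0.0659). Col10a1 lies wholly within Nt5dc1 on the opposite strand, which was at 296 to 358 in bone marrow and at 348 to 458 in small intestine.

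**Figure D2:**
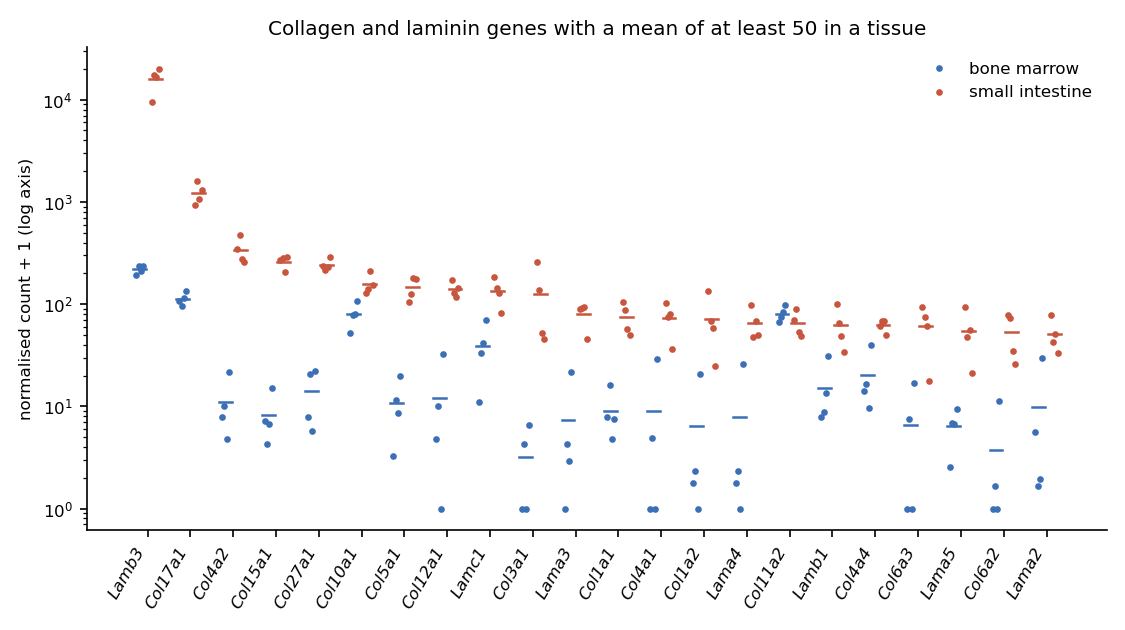
Normalised count plus 1 (y axis, log scale) in each library for the 22 genes whose mean reached 50 in a tissue, ordered by small intestine mean; points are libraries and lines are means of 4. Lamb3 and Col17a1 stand above the rest in small intestine, and Col11a2 overlaps between the tissues.

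Among the genes given by library so far, the 22 that reached a mean of 50 all did so in small intestine, so that level chose them and the number of them called is not read as a result. Of the other 33 genes, 12 were called higher, with differences from 1.45 (Col26a1) to 3.95 (Col6a1), and 21 were not called. Their differences ran from -0.58 (Col9a2, adjusted p = 0.544) to 3.95. Col8a2, a short chain collagen of the cornea, had 0 reads in every bone marrow library, which allows up to 1.96 to 2.87 normalised counts (3 reads), and was at 5.46, 0, 4.38 and 0 in small intestine.

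The libraries with the most olfactory receptor reads were often the highest. BM_5 was the highest bone marrow library for 46 of the 55 genes (83.6%), and for 15592 of the 38392 genes (40.6%). Among the 33 genes below the mean of 50, SI_10 was the highest small intestine library for 22 (66.7%), against 35.3% of all genes. The share of all genes also depends on level, being 12.6% among those with a small intestine mean of at least 50. It was not counted for genes below that mean, so 35.3% is a low background for these 33 genes. Olfactory receptor genes summed to 0.0322 to 0.129 normalised counts per kb in BM_1, BM_3 and BM_4, 0.661 in BM_5, 0.232 to 0.455 in SI_6, SI_7 and SI_11, and 0.895 in SI_10. The median level of the 55 genes per kb was 0.201, 0.600, 0.142 and 2.08 in the bone marrow libraries and 4.68, 3.97, 4.96 and 2.46 in the small intestine libraries. In BM_5, 5 of the 55 genes lay above 10 times the olfactory level, in SI_10 11, in the other bone marrow libraries 18 to 23, and in the other small intestine libraries 26 to 32. The part of these low-level reads in the differences was not tested beyond leaving out libraries. Without BM_5, 40 genes were called, among them Col6a5, Col9a1, Col22a1, Col24a1, Col25a1 and Col28a1, which were not called in all libraries (adjusted p = 0.00292 to 0.0228 without it). Without SI_10, 24 genes were called. Of the low genes, Col13a1 (1.70 ± 0.47, adjusted p = 0.0225) and Col26a1 (1.45 ± 0.48, adjusted p = 0.0473) lost their call without SI_10 (adjusted p = 0.0501 and 0.142) and without several other single libraries, and Col9a3 passed without BM_3 (1.40, adjusted p = 0.0297).

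**Figure D3:**
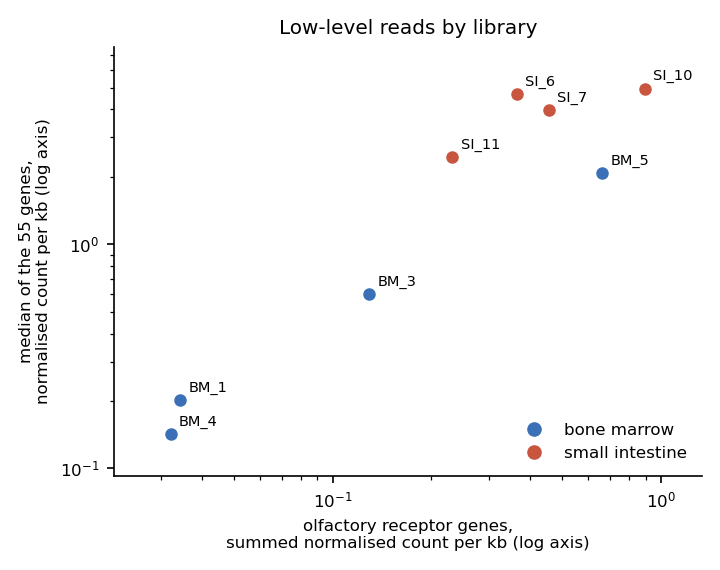
Median level of the 55 genes (y axis, normalised count per kb) against the summed level of 954 olfactory receptor genes (x axis, normalised count per kb) in each of the 8 libraries, both on log scales. BM_5 lies nearest to the small intestine libraries on both axes, and SI_10 has the highest value on both.

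Whether the small intestine libraries varied together was described for the 22 genes whose mean reached 50, without a test, since there were 4 libraries. SI_6 was the highest library for 12 of the 22 (54.5%), against 33.6% of all genes with a small intestine mean of at least 50, and SI_11 was the lowest for 10 of these 12. Lamb3, Col17a1, Col5a1 and Col10a1 went the other way and were lowest in SI_6. Col15a1, Col27a1, Col12a1 and Col4a4 varied least, by 1.35 to 1.48 times.

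Markers of other cells moved with these libraries. The 13 epithelial markers, led by Krt19 and Lgals4, summed to 27026 normalised counts in SI_6, 11255 in SI_7, 4405 in SI_10 and 5359 in SI_11, against 192 to 207 in bone marrow, and 13 of 13 were higher. The 10 smooth muscle and pericyte markers, led by Myh11 and Acta2, summed to 2258, 1638, 923 and 1242 (79.7 to 214 in bone marrow, 10 of 10 higher). The 10 endothelial markers, led by Vwf and Cdh5, summed to 632, 541, 579 and 468 (88.9 to 199 in bone marrow, 8 higher and 1 lower). The 12 fibroblast markers summed to 3646, 3977, 3934 and 4659, of which Gsn, an actin-severing protein also made by leukocytes, held most. Without Gsn the fibroblast markers, led by Dcn and Sfrp1, summed to 480.3, 345, 145 and 127 (3.06 to 66.0 in bone marrow), and 8 of these 11 were higher, as was Gsn.

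Genes differed in the order of their small intestine libraries. How many of all genes followed each order was not counted, so the matches are described and not read as a result. Col1a1, Col1a2, Col3a1, Col6a2, Col6a3, Lamb1 and Lamc1 followed the order of the fibroblast markers without Gsn, SI_6, SI_7, SI_10 and SI_11. Col4a1, Lama2 and Lama5 followed that of the endothelial markers, SI_6, SI_10, SI_7 and SI_11. Col15a1 followed that of the summed macrophage markers, SI_11, SI_7, SI_6 and SI_10. Adgre1 and Csf1r led that sum, whereas 5 of the 8 macrophage markers were highest in SI_6 and 2 in SI_11. Epithelial and smooth muscle markers shared 1 order, which 0 of the 22 followed. Neighbouring libraries in these orders could differ by less than the counting error, as did Col3a1 with 47 reads in SI_10 and 38 in SI_11. Lamb3 followed the order of the summed eosinophil markers, which were at 33400 in SI_6, 41846 in SI_7, 40597 in SI_10 and 46088 in SI_11 and at 2465 to 3744 in bone marrow. Alox15, a lipoxygenase, and Ccr3 held most of that sum. Of these 7 markers 4 were higher in small intestine, and the granule protein genes Prg2, Prg3 and Epx were lower. SI_6 held the lowest level of Lamb3 and the highest sum of epithelial markers.

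The spread of each gene was set beside the spread of its ratio to a marker list. The SD of log2 levels over the 4 libraries had a median of 0.489 over the 22 genes. The SD of the log2 ratio had a median of 0.397 against the endothelial list, 0.603 against smooth muscle, 0.621 against fibroblast, 0.686 against fibroblast without Gsn, 0.656 against eosinophil and 0.985 against epithelial markers. The ratio varied less than the gene itself for 15 of 22 genes (68.2%) against the endothelial list, 9 (40.9%) against smooth muscle, 8 (36.4%) against fibroblast without Gsn, 6 (27.3%) against epithelial, 4 (18.2%) against the whole fibroblast and 4 (18.2%) against the eosinophil list. These medians and counts also depend on the spread of the list itself. The SD of its log2 sum over the 4 libraries was 1.19 for epithelial and 0.938 for fibroblast markers without Gsn. It was 0.552 for smooth muscle, 0.195 for eosinophil, 0.183 for endothelial and 0.149 for the whole fibroblast list. A ratio to a widely varying list can vary less only for genes that themselves vary widely, so the lists are not ranked by these counts. SI_11 weighed on several of the medians and counts. Without it the medians were 0.398 for the genes themselves, 0.370 against the fibroblast and 0.421 against the eosinophil list. Against the endothelial list the median was then 0.412, no longer below that of the genes themselves. The counts without it were 13 (59.1%) against endothelial, 7 (31.8%) against fibroblast, 5 (22.7%) against smooth muscle, 5 (22.7%) against fibroblast without Gsn and 1 (4.55%) against epithelial markers. For Col3a1 the SD fell from 1.202 to 0.25 against the epithelial and 0.29 against the fibroblast list without Gsn. For Col6a2 it was 0.81 alone and 0.22 against that fibroblast list, and for Col1a1 0.52 alone and 0.27 against smooth muscle. For Lamb3 it was 0.47 alone, 0.28 against the eosinophil and 1.61 against the epithelial list, and for Col17a1 0.35, 0.25 and 1.34. Against the mean log2 level of the eosinophil genes, in which each gene weighs alike, the SD was 0.41 for Lamb3 and 0.49 for Col17a1, the latter above that of the gene alone. The part of other cells in these levels was not tested.

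**Figure D4:**
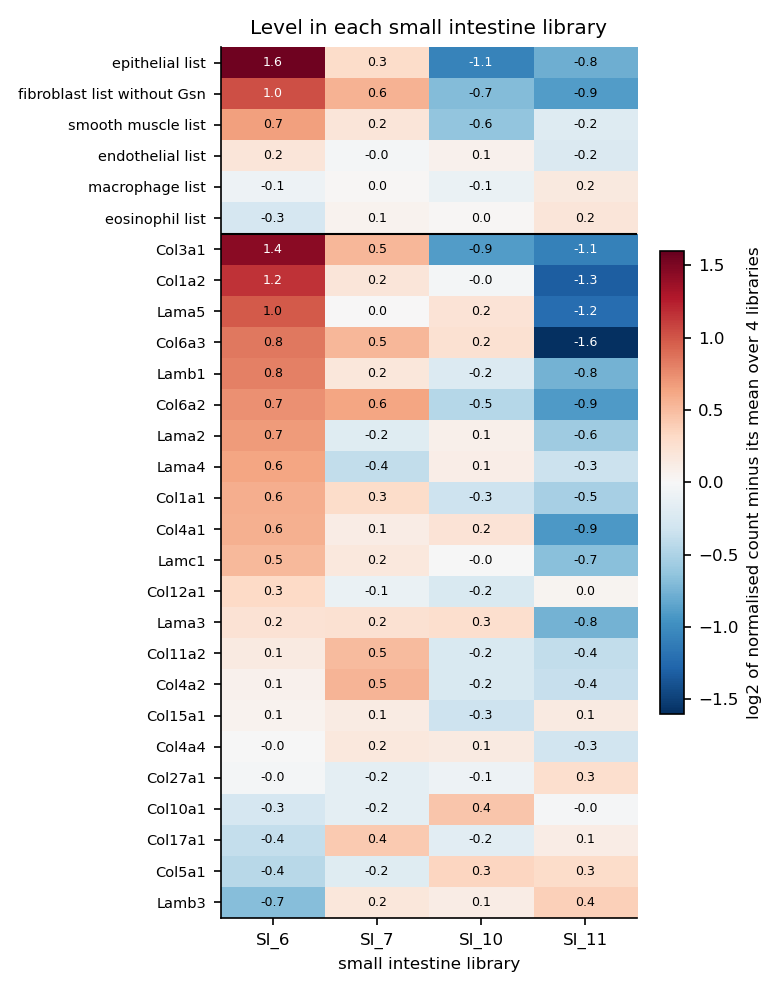
Level in each small intestine library (x axis) for 6 marker lists, above the line, and the 22 genes whose mean reached 50, below it; colours and numbers are log2 of the normalised count minus its mean over the 4 libraries. Col3a1 falls from 1.4 in SI_6 to -1.1 in SI_11, whereas Lamb3 is at -0.7 in SI_6 and 0.4 in SI_11.

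Further marker lists bear on the sort. Macrophage markers, led by Adgre1 and Csf1r, which eosinophils also express, summed to 14416 to 17290 normalised counts in small intestine and 574 to 725 in bone marrow, and 5 of 8 were higher. Glial markers summed to 196 to 246 in small intestine and 2481 to 3269 in bone marrow, where Ncam1 held most. Ncam1 was the 1 of these 6 that was lower, while S100b, Sox10 and Gfap were higher at low levels. Bone and marrow stroma markers, led by Lepr and Cxcl12, summed to 128 to 218 and 12.3 to 79.0 (3 of 10 higher), and platelet markers, led by Ppbp and Itga2b, to 789 to 1092 and 148 to 269.8 (2 of 6 higher and 1 lower). The bone markers Bglap2 and Sp7 had 0 reads in every bone marrow library.

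The genes that process collagen were called in both directions, and the balance turned with the scaling. Of 28 genes, 10 were higher (35.7%) and 6 lower (21.4%) in small intestine, shares near the 28.4% and 20.1% of protein-coding genes. With libraries centred on their median 7 were higher and 10 lower, and after quantile normalization 7 and 8. Centring lowered every difference by the same amount, set by genes with few reads, so its counts carry that limit. Serpinh1, the collagen chaperone HSP47, had 0 reads in every bone marrow library and was at 34.9, 15.3, 16.4 and 5.93 in small intestine (3.34 ± 0.39, adjusted p = 0.000249). P4ha2, a catalytic subunit of prolyl 4-hydroxylase, differed by 3.07 ± 0.61 and P3h2, a prolyl 3-hydroxylase, by 3.05 ± 0.30, both at under 50 normalised counts in every library. The lower genes were P3h1 (-2.46 ± 0.27) and its partner Crtap (-1.82 ± 0.21), Adamts3, P4hb, Plod3 and Loxl3. P4hb, protein disulfide isomerase and the other subunit of prolyl 4-hydroxylase, had the highest level, with a mean of 11179 ± 631 in marrow and 3576 ± 598 in intestine (SD, n = 4; difference -1.66 ± 0.19, adjusted p = 0.000254). It was followed in small intestine by Mia3, which loads procollagen into transport carriers (higher, 0.70 ± 0.17), and Colgalt1, a collagen galactosyltransferase (not called, -0.28 ± 0.22). With libraries centred on their median Mia3 turned to -0.20 (adjusted p = 0.754) and Colgalt1 was called lower (-1.18, adjusted p = 0.0358). After quantile normalization Mia3 stayed higher (0.54, adjusted p = 0.0118) and Colgalt1 was not called (-0.24, adjusted p = 0.386).

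Among 16 receptors of collagen and laminin, 7 were higher (43.8%) and 0 lower by limma. Of protein-coding genes 28.4% were higher and 20.1% lower. In small intestine 15 of the 16 receptors averaged 10 or more normalised counts. Of all genes at such levels 38.4% were higher and 24.4% lower. The share of higher receptors was near that 38.4%, and the shares were not compared by a test. Of the receptors, 10 were higher and 1 lower at an unadjusted p under 0.05. Limma voom called 12 receptors higher and 1, Itga6, lower. With libraries centred on their median there were 7 higher and 1, Itga6, lower, and after quantile normalization 6 higher and 1, Itga10, lower. Itga3, an alpha chain of a laminin-332 receptor, was at 0.766, 0, 0.957 and 2.79 in bone marrow and at 294, 135, 52.5 and 33.2 in small intestine (4.77 ± 0.66, adjusted p = 0.000634). Itga2, of the collagen receptor of platelets and epithelium, was at 13.8, 18.9, 17.2 and 28.8 and at 448, 373, 292 and 321 (3.98 ± 0.25, adjusted p = 9.81e-06). Itgb4, the beta chain of the hemidesmosome integrin, was at 5.36, 11.7, 3.83 and 14.9 and at 294, 151, 97.4 and 82.97 (3.62 ± 0.46, adjusted p = 0.00042). In contrast to Lamb3 and Col17a1, Itga3, Itga2 and Itgb4 were highest in SI_6. Itga6, the alpha chain that pairs with Itgb4, was at 1502, 1248, 1628 and 1138 in bone marrow, at 1637, 729, 304 and 405 in small intestine, and was not called (adjusted p = 0.112). The highest levels were those of Lair1, an inhibitory collagen receptor of leukocytes (mean normalised counts 2767 ± 429.9 in bone marrow, 3764 ± 461 in small intestine, SD, n = 4), and Itgb1, the common beta chain (2219 ± 239.5, 2982 ± 407). Neither was called by limma on the deposited values. Limma voom called both higher (Lair1 0.417, adjusted p = 0.0104, and Itgb1 0.426, adjusted p = 0.00444). With libraries centred on their median the differences were -0.45 and -0.48 (adjusted p = 0.454 and 0.428).

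Of 12 partners of collagens and laminins in the basement membrane, 7 were higher (58.3%) and 0 lower by limma. At an unadjusted p under 0.05 and by limma voom, 0 were lower. In small intestine 11 of the 12 partners averaged 10 or more normalised counts. Of all genes at such levels 38.4% were higher and 24.4% lower, and the shares were not compared by a test. Smoc1 (-0.44, adjusted p = 0.348) was called lower with libraries centred on their median (-1.34, adjusted p = 0.0148). It was also called lower after quantile normalization (-1.45, adjusted p = 0.00625), and 7 partners were higher under each scaling. Sparc, a collagen-binding glycoprotein, was at 2.30, 2.61, 5.74 and 2.79 in bone marrow and at 319, 197, 149 and 171 in small intestine (4.98 ± 0.29, adjusted p = 6.56e-06). Hspg2, perlecan, was at 0.766, 0.652, 0.957 and 13.9 and at 331, 148, 106 and 105 (4.88 ± 0.60, adjusted p = 0.00035), and Smoc2, a Sparc relative, at 0, 0, 0 and 4.65 and at 195, 70.7, 27.3 and 43.9 (4.65 ± 0.67, adjusted p = 0.000825). These 3 genes were highest in SI_6. Agrn, the heparan sulfate proteoglycan agrin, had the highest level of the list, at 185, 166, 139 and 112 and at 550.1, 559, 587 and 618 (1.94 ± 0.21, adjusted p = 0.000163), with little spread over the small intestine libraries. The call of Agrn was lost with libraries centred on their median (1.04, adjusted p = 0.0666) and kept after quantile normalization (1.95, adjusted p = 4.08e-05). Nid1, nidogen that joins laminin to type IV collagen, also passed (2.91 ± 0.73, adjusted p = 0.0138).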

How the data were processed

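RNA was sequenced from 4 bone marrow and 4 small intestine libraries. Per the methods of the study, RNA of sufficient integrity was amplified with the NuGEN Ovation system and read from a single end on an Illumina sequencer. The authors counted reads on GRCm38 (Ensembl release 86) with nf-core/rnaseq and deposited log2 values from the variance stabilisation of DESeq2 under R 4.0.3. For the aligner, the strand setting and multi-mapped reads, the choices made were not given in the sources used here. Column names gave the tissue of a library but matched no single sample.

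Inverting the transformation from its lowest value (0.92971568) gave whole reads within 0.05 for 100% of values, with size factors of 0.721 to 1.53. Of the genes, 22177 had a mean under 10 reads, where depth limits precision. Deposited values of all 8 libraries were tested with limma 3.58.1 in R 4.3.3, unfiltered, with a constant prior and tissue as the one term, and the step was tested on simulated data. The authors used a count model, which the log2 unit does not allow as the main test, so limma voom on recovered reads was an alternative. Alternatives also covered scale, centring, a filter on reads, the prior and leaving out libraries. Coordinates and exonic lengths came from GENCODE M21 of the same build, which held every identifier and gave 38000 of 38392 the same symbol, and promoter windows came from RefSeq. Python 3.11.15, pandas 2.3.3 and matplotlib 3.10.9 were used for other steps.

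The members, the lists, the classes and the rule for named genes were chosen with earlier results of these data known. By that rule, genes with a mean of at least 50 normalised counts in a tissue are given by library, as are the 3 largest called differences among the others, and genes with 0 reads in a whole tissue are named, except that 1 gene is not reported here. Of each list of partner genes the 3 highest in small intestine and the 3 largest differences are named. Of each marker list the 2 most abundant are named. Further named genes, G0s2, Hsd11b1, Nt5dc1, Nid1, Smoc1, Itga10, Adamts3, Plod3, Loxl3, Crtap, Sp7 and Bglap2 among them, were chosen after their values were seen.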

Additional observations from a re-analysis of the deposited data

Results flagged for a closer look

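Dixon's test at its 95% limit was applied to the highest and the lowest library of each tissue, that is, to the gap from its nearest neighbour over the range of the 4. Chance sets apart about 1 in 20 groups. Of 142 groups examined (each gene and each summed list in each tissue), 7 stood out. In 2 of these the other 3 libraries were equal at 0 reads, and among the 139 other groups with unequal values 5 stood out, against 6.95 by chance. The ratio was 1.0 for Col6a1 in bone marrow, where BM_5 was the only library with reads, and 1.0 for Col2a1 in bone marrow, where BM_3 was. In small intestine it was 0.963 for Lama3 (SI_11 lowest), 0.841 for Col8a1 (SI_7 lowest), 0.847 for Col9a1 (SI_10 highest) and 0.906 for Lamc3 (SI_10 highest). For the summed basement membrane partners in bone marrow it was 0.883 (BM_5 highest).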

How the results depend on the processing

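No paired analysis was possible because the labels number the libraries of the tissues without a shared number. The count of collagen and laminin genes called was 33 and stayed within 1.5 times that under every alternative, from 24 (without SI_10) to 40 (without BM_5, and limma voom), and 19 of the 33 stayed called with the same sign under all alternatives. The median difference of all genes was 0.370, and 0.894 under limma voom, -0.53 with libraries centred on their median and -0.03 after quantile normalization. Centring lowered every difference by the same amount, set by genes with few reads, so lost calls and sign changes under centring carry that limit. The count of receptors called was 7, and 13 under limma voom, 11 with genes under a mean of 10 reads left out and 12 with a mean-dependent prior, while leaving out 1 library gave 6 to 10. The cause was not tested. No called gene changed sign. Of the 22 genes not called, 6 did. With libraries centred on their median the differences became -0.11 for Col7a1, -0.12 for Col14a1, -0.73 for Col5a3 and -0.89 for Col20a1. After quantile normalization they were -0.039 for Col4a5, -0.055 for Col14a1, -0.54 for Col5a3 and -0.62 for Col20a1, and limma voom gave -0.027 for Col20a1. Without BM_5 and SI_10, an alternative chosen after seeing the data, Col5a3 was at -0.17 and Col20a1 at -0.29. Leaving out 1 library gave -0.28 to 0.70 for Col5a3, -0.22 to 0.35 for Col20a1 and -0.45 to 0.16 for Col6a6. The share of genes whose ratio to a list varied less than the gene itself was 18.2% for the fibroblast list, 45.5% with the mean log2 of its genes, 36.4% without Gsn (chosen after seeing the data) and 22.7% to 31.8% with 1 library left out. Without Gsn, leaving out 1 library gave 5 (without SI_11) to 11 (without SI_10) of the 22 genes. For smooth muscle it was 40.9%, 59.1% with the mean log2 of its genes, 26.5% for the 49 genes whose small intestine mean reached 10, and 22.7% to 59.1% with 1 library left out. For the endothelial list it was 68.2%, 68.2% with the mean log2, 69.4% for the 49 genes, and 59.1% to 72.7% with 1 library left out. With the mean log2 in place of the sum it went from 22.7% to 63.6% for the macrophage list. It went from 36.4% to 54.5% for the glial list and from 18.2% to 13.6% for the eosinophil list. For the epithelial list it was 27.3%, and 4.55% (without SI_11) to 40.9% with 1 library left out.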
